A study of Homo sapiens with 16 samples.

Results

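The genes described here are 10 genes of DNA replication licensing, taken by symbol from 57500 genes measured in HEK293T cells: MCM2, MCM3, MCM4, MCM5, MCM6, MCM7, MCM10, CDC6, CDT1 and CDC45. Before each S phase, the origin recognition complex and CDC6 sit on origin DNA, and CDT1 brings in the ring of MCM2 to MCM7, so that a double ring is loaded in an inactive state. In S phase, CDC45 and the GINS complex join the ring to make the active helicase, a step that the kinase DBF4-CDC7 starts and in which MCM10 takes part. The members are classical E2F target genes, whose messages rise as cells enter S phase, and rings are loaded in excess of the origins that fire. With pinometostat, the messages of MCM3, MCM5, MCM7 and CDT1 fell against DMSO, with JQ1 that of CDC6 rose, and between E92K and H2A no member passed the test.

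HEK293T cells derive from human embryonic kidney and make SV40 large T antigen, a viral protein that binds the pocket proteins of the retinoblastoma family, the repressors of E2F. The 16 libraries of total RNA fell into 4 groups of 4. E92K cells carried a lentiviral vector for histone H2A(E92K), a change of glutamate to lysine in the acidic patch of the nucleosome, and were given DMSO. H2A cells carried a lentiviral vector for H2A without that change, and were given JQ1 at 1 µM for 3 h, pinometostat at 2.5 µM for 24 h, or DMSO. JQ1 blocks the acetyl-lysine pockets of the BET bromodomain proteins. Pinometostat is an inhibitor of DOT1L, a histone H3 methyltransferase that acts on the bodies of transcribed genes. All groups therefore carry an added H2A gene on top of the cells' own. The labels do not give the promoter of the vector, whether a line is a clone, or a time for DMSO. The same 4 H2A libraries with DMSO serve every comparison with DMSO, so a difference of time or handling and the compound cannot be told apart. The treatment text gives pinometostat in millimolar and the sample field in micromolar, and the sample field was used. The samples are numbered without a statement that they were separate cultures, so the p-values measure sample-to-sample spread only, and that spread may be technical.

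Total counts ran from 22372028 to 25657327 in E92K with DMSO, from 17779692 to 21709716 with JQ1, from 20540965 to 22873652 with pinometostat and from 24003378 to 27599686 in H2A with DMSO. A pair of libraries stood apart: mitochondrial genes took 16.5% of the counts of JQ1 replicate 1 and 7.45% of those of E92K replicate 4, and 3.04% to 5.04% elsewhere. Calls of members that change without both libraries are given beside the results. Of 12 embryonic kidney markers, 10 had a mean of at least 1 TPM in H2A cells with DMSO, and of 7 blood markers PTPRC and HBB were at 0 there. Levels below are CPM (counts scaled to library size, with TMM factors) unless TPM is named. A fold change is log2, ± SE, from the quasi-likelihood test of edgeR over all 16 libraries, and a gene is called where the Benjamini-Hochberg p, adjusted over all 17306 genes tested, is below 0.05. All 10 members passed the filter on low counts. They had between 650 and 19986 counts per library.

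The promoter sequences are shown first because E2F sites are what these genes are best known for. RefSeq windows of 300 bases around gene starts (GRCh38.p14) held 8 of the 10 members, and MCM4 and MCM5 had no entry. The E2F letters TTTCCCGC, TTTGGCGC, TTTCGCGC and TTTGCCGC were sought on both strands. They stood in a window of 6 of the 8 members, CDC6, CDT1, MCM2, MCM3, MCM6 and MCM7, against 3.99% of 27305 genes with an entry, and in no window of MCM10 or CDC45. A match is a description of letters and not a measured site, and no match means only that the letters sought were absent. TTTGGCGG, which differs from TTTGGCGC in its last letter, was not sought. It stands in windows of MCM10 and CDC45, and unmarked in those of CDC6 and CDT1. Its share over all genes was not counted. The windows of MCM3, MCM7 and CDT1, which fell with pinometostat, of CDC6, which rose with JQ1, of MCM6, which was called in neither, and of MCM10, without a match, read 5′ to 3′ with the E2F letters of either strand in capitals:
MCM3, chr6:52284693-52284992, minus strand: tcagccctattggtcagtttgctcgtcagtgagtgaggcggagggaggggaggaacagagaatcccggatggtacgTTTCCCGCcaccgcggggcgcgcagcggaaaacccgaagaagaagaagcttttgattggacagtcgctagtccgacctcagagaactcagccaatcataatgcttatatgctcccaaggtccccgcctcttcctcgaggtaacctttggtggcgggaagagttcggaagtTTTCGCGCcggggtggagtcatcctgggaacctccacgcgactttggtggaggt
MCM7, chr7:100101348-100101647, minus strand: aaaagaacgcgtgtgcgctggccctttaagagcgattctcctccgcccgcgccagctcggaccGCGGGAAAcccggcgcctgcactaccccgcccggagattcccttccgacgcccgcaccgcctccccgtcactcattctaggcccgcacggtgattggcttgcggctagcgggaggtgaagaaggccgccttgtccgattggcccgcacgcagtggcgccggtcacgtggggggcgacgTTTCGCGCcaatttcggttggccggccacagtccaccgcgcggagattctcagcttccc
CDT1, chr16:88803539-88803838, plus strand: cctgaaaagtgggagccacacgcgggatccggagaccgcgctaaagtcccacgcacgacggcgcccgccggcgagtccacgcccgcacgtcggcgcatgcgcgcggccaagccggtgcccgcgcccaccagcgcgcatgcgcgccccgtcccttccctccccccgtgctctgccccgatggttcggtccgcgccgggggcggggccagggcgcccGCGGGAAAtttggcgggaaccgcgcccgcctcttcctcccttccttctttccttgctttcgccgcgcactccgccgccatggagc
CDC6, chr17:40287629-40287928, plus strand: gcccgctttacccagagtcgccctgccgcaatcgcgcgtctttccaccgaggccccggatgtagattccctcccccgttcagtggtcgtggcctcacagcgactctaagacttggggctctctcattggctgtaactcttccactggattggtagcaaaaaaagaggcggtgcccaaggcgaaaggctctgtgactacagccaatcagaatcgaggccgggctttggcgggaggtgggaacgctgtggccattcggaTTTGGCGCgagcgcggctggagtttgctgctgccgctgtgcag
MCM6, chr2:135876394-135876693, minus strand: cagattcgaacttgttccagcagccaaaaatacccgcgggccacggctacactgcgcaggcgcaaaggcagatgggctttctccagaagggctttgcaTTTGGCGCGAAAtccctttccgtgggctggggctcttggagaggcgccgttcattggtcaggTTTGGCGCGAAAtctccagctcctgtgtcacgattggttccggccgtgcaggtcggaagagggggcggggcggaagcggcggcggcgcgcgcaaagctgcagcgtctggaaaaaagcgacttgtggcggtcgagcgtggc
MCM10, chr10:13161308-13161607, plus strand: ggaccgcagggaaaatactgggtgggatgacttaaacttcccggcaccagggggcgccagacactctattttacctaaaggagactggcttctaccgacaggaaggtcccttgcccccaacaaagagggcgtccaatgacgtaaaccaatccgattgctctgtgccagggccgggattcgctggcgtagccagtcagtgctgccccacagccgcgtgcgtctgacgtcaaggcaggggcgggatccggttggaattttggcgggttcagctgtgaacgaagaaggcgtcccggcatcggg
In MCM7 the matches began 187 and 9 bases before the start, and in MCM3 174 and 4 bases before it. CDT1 had a match 35 bases before the start, and CDC6 had one 7 bases after it. In MCM6 matches began 152, 148, 90 and 86 bases before the start, in pairs in which the matches of opposite strands overlap. The letters CCAAT or their complement stood in windows of 6 of the 8 members, against 39.7% of all genes. The letters TTTGAA or TTTAAA of the cell cycle homology region, an element of late cell cycle genes, stood in a window of 1, CDC45, against 27.9%.

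Per length, MCM7 was the most abundant of the 10 messages and MCM10, the scaffold factor of helicase activation, the least abundant in 16 of 16 libraries. In H2A cells with DMSO, MCM7 stood at 472 ± 68.9 TPM, MCM3 at 288 ± 24.0 TPM and MCM10 at 41.7 ± 3.33 TPM (SD, n = 4). The loaders differed from each other, with CDT1 at 227 ± 18.3 TPM and CDC6 at 65.5 ± 2.09 TPM in the same libraries. Of the 6 ring subunits, which make up the complex in equal numbers, MCM5 was the lowest in 15 of 16 libraries, and the highest was 3.99 to 5.24 times the lowest within a library. The exonic length that the TPM values use counts 2.08 times the longest coding transcript of MCM5 and 1.63 times that of MCM4, which lowers both. Per length of the longest coding transcript, MCM5 was still the lowest ring subunit in H2A cells with DMSO, at 61.8 CPM per kilobase. MCM6 was close to it at 65.0 and MCM7 was the highest at 206, a narrower range than in TPM.

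**Figure D1:**
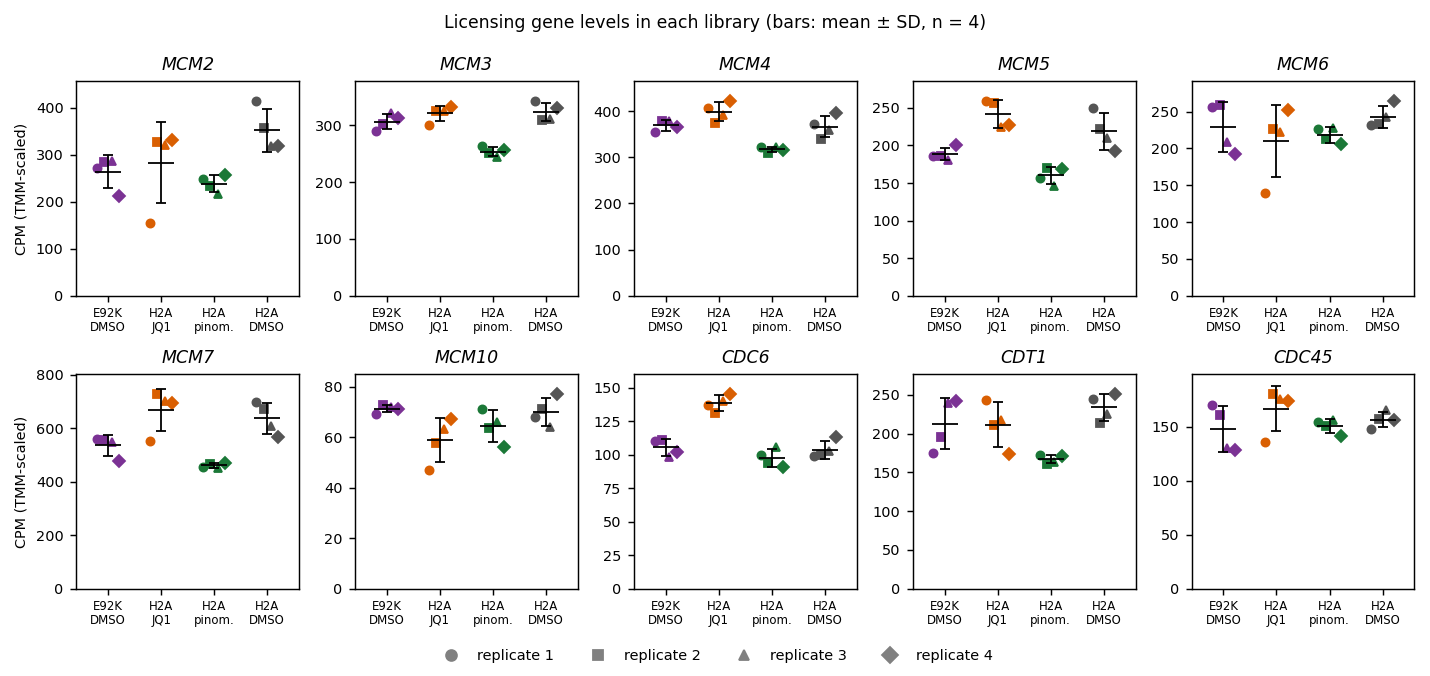
CPM (TMM-scaled) of each licensing gene in every library, with E92K, JQ1, pinometostat and H2A with DMSO from left to right in each panel; points are libraries, shaped by replicate number, and bars are mean ± SD (n = 4). The pinometostat libraries of MCM3, MCM5, MCM7 and CDT1 lie below every H2A library with DMSO, the JQ1 libraries of CDC6 lie above them, and JQ1 replicate 1 lies low in MCM2 and MCM6.

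The comparison of pinometostat with DMSO in H2A cells addresses how licensing gene messages stand after 24 h with this DOT1L inhibitor. Of the 10 members 4 fell, MCM3, MCM5, MCM7 and CDT1, by 0.35 to 0.48 on the log2 scale (21.6% to 28.5% lower), and 0 rose. Over all genes tested, 8.2% were called, 4.58% lower and 3.62% higher. All 10 members had a negative value, with a median of -0.28 against 0.03 over all genes, and -0.40 over the 6 ring subunits. In bulk RNA, fewer cells in S phase and less message per cell cannot be told apart.

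MCM7, a ring subunit, had 454, 466, 453 and 471 CPM with pinometostat, against 697, 673, 606 and 568 CPM with DMSO. The 4 pinometostat libraries lay close together and below every DMSO library. Its log2 fold change was -0.46 ± 0.11 (edgeR, adjusted p = 0.0156). MCM5, which with MCM2 forms the gate through which the ring opens around DNA, had 156, 170.2, 146 and 169 CPM with pinometostat, against 250.2, 222, 209 and 193 CPM with DMSO. The groups did not overlap, and the fold change was -0.45 ± 0.10 (edgeR, adjusted p = 0.0145). MCM3, which in yeast contacts the loading machinery, had 263, 252, 244 and 257 CPM with pinometostat, against 343, 309, 311 and 331 CPM with DMSO. Again no pinometostat library reached a DMSO library, with a fold change of -0.35 ± 0.08 (edgeR, adjusted p = 0.0192).

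CDT1, the loader of the ring that geminin holds in check, had 173, 161, 164 and 171 CPM with pinometostat, against 245, 214, 225 and 251 CPM with DMSO. The groups stood apart, and the fold change was -0.48 ± 0.12 (edgeR, adjusted p = 0.0232). CDC6, the other loader, averaged 97.7 ± 6.75 CPM with pinometostat and 104 ± 6.45 CPM with DMSO (SD, n = 4 each), and its libraries overlapped. The 95% interval of its fold change ran from -0.27 to 0.10.

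MCM2, the subunit with a histone-binding tail, had the most negative value of the 10, -0.56 ± 0.19, but did not pass the test (edgeR, adjusted p = 0.0688). Its 4 pinometostat libraries had 248, 233, 216 and 256 CPM, against 414, 356, 318 and 319 CPM with DMSO, without overlap. MCM4 at -0.21 ± 0.08 and MCM6 at -0.16 ± 0.15 were not called either (edgeR, adjusted p = 0.131 and 0.541), though their groups did not overlap. In all, 7 members, the 6 ring subunits and CDT1, had every pinometostat library below every DMSO library, against 13.5% of all genes, and 0 had every pinometostat library above (12.7% of all genes). The activation factors CDC45, at -0.06 ± 0.11, and MCM10, at -0.13 ± 0.11, overlapped between the groups. The intervals of their fold changes ran from -0.30 to 0.18 for CDC45 and from -0.36 to 0.11 for MCM10.

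The calls with pinometostat lay close to the threshold. Leaving out H2A DMSO replicate 1, which had the highest MCM2, MCM3, MCM5 and MCM7 values of its group, left 0 of the 4 called, with adjusted p from 0.0546 to 0.0778 in edgeR. CDT1 was called in 3 of the 8 fits without a library: it was lost without any of the pinometostat libraries (0.0556, 0.0601, 0.0571 and 0.0513 for replicates 1 to 4 left out). MCM3 was lost without pinometostat replicate 2 or 3 (edgeR, 0.05003 and 0.0547), and MCM7 without replicate 1 (0.051). Without JQ1 replicate 1 and E92K replicate 4, which are in neither group but share the spread estimate, 6 members were called, the same 4 with MCM2 (edgeR, adjusted p = 0.000189) and MCM4 (0.0313). In that fit 27.4% of all genes were called, against 8.2% with all libraries. Of the 19 other settings, MCM2 was called in 6 and MCM4 in 4, with DESeq2 and the 8 libraries of pinometostat and DMSO alone among them. DESeq2 called 13.6% of all genes, and the fit of those 8 libraries 27.6%. The direction was negative for all 10 members in each of the 19 other settings. The summed level of the 12 kidney markers moved in the same direction, at 352 to 375 TPM with pinometostat and 427 to 505 TPM with DMSO. Most of that sum was CITED1, with a mean of 313 TPM over the 16 libraries, against 40.3 TPM for SIX2, the next highest. Of 10 tested markers 0 were called by edgeR (3 at an unadjusted p below 0.05, 2 by DESeq2). The 8 neuronal markers summed to 118 to 176 TPM with pinometostat and 168 to 280.1 TPM with DMSO, the 7 fibroblast markers to 56.8 to 101 TPM and 88.3 to 117 TPM, and the 7 blood markers to 3.47 to 5.62 TPM and 3.87 to 6.002 TPM, with 0 called by edgeR in each list. The part of these lists in the licensing result was not tested.

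**Figure D2:**
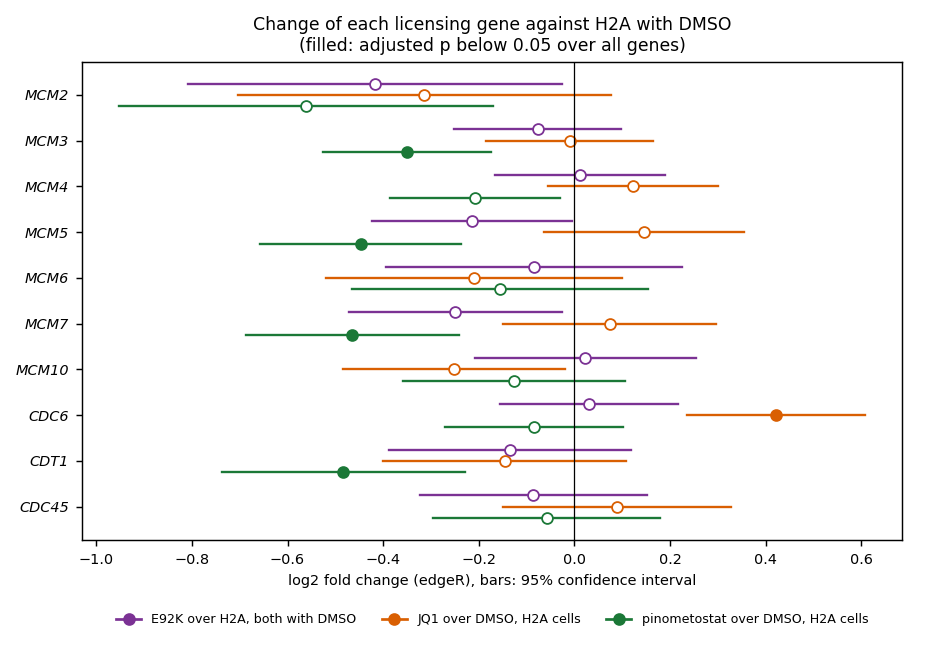
Log2 fold change of each licensing gene (rows) for E92K over H2A with DMSO, JQ1 over DMSO and pinometostat over DMSO; bars are 95% confidence intervals from edgeR, and filled points have an adjusted p below 0.05. All 10 pinometostat values lie left of 0 with 4 called, CDC6 alone is called with JQ1, and no E92K value is called.

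The comparison of JQ1 with DMSO in H2A cells addresses the same messages after 3 h with this BET inhibitor. CDC6 rose, by 0.42 ± 0.09 on the log2 scale, or 33.9% (edgeR, adjusted p = 0.0027), and the other 9 members were not called. Over all genes tested, 17.6% were called, 7.16% higher and 10.4% lower. CDC6 had 137, 131, 140.2 and 146 CPM with JQ1, against 98.9, 99.7, 103 and 113 CPM with DMSO. Each JQ1 library, the first included, lay above each DMSO library, as for 8.26% of all genes, and no member had every JQ1 library below (12.2% of all genes). CDC6 was called in all 8 fits that leave out a library and without JQ1 replicate 1 and E92K replicate 4 (0.41, adjusted p = 0.000845, edgeR). It was not called with library size alone (0.24, adjusted p = 0.119), without a filter (0.37, 0.0782) or by limma on log2(TPM + 1) (0.12, 0.656).

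The other members lay on both sides of 0 with JQ1, with a median of 0.03 against 0.04 over all genes. CDT1, the partner of CDC6 in loading, had 244, 211, 217 and 174 CPM with JQ1, against 245, 214, 225 and 251 CPM with DMSO. Those groups overlapped, and the fold change was -0.15 ± 0.12 (edgeR, adjusted p = 0.448). MCM10 averaged 58.8 ± 8.64 CPM with JQ1 and 70.1 ± 5.57 CPM with DMSO, a fold change of -0.25 ± 0.11 that did not pass (edgeR, adjusted p = 0.128). MCM2 had 154 CPM in JQ1 replicate 1 and 327, 320.0 and 332 CPM in the other JQ1 libraries, against 318 to 414 CPM with DMSO. The level in replicate 1 was 0.471 times the mean of the other 3, or -1.09 on the log2 scale. The median over all genes in replicate 1 was -0.02 on that scale. Without that library, the fold change of MCM2 was -0.14 instead of -0.31, and neither was called. MCM6 showed the same library low, at 139 CPM, with 222 to 252 CPM in the other 3 and 231 to 265 CPM with DMSO. MCM7, at 554 CPM against 694 to 728 CPM, and MCM3, at 302 CPM against 325 to 332 CPM, were also lowest in that library. MCM4 in the same library had 408 CPM and MCM5 259 CPM, inside or above the range of the others, so not all subunits shared its low level. Among the JQ1 libraries, 6 members were lowest and 2 highest in replicate 1. The median of the members there was -0.24 on the log2 scale against the mean of the other 3. The high mitochondrial share of that library stands beside these values, and its part was not tested.

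The comparison of E92K with H2A, both with DMSO, sets cells with the acidic patch change against cells without it. The change and other differences between the lines, such as the level of the added H2A, cannot be told apart. No member was called by edgeR, DESeq2 or limma-voom, and 0% of all genes was called by edgeR, while 4 genes passed in DESeq2. At an unadjusted p below 0.05, 1296 genes and 3 members stood out in edgeR, MCM2, MCM5 and MCM7. MCM2 had 271, 285, 286 and 212 CPM in E92K cells, against 414, 356, 318 and 319 CPM in H2A cells. The libraries did not overlap, but the value of -0.42 ± 0.19 had an adjusted p of 0.656 in edgeR. MCM7 had 559.5 or fewer CPM in every E92K library and 568 or more in every H2A library, with a value of -0.25 ± 0.11 (edgeR, adjusted p = 0.656). Its lowest E92K library, replicate 4, had 477 CPM and the next 549 CPM. Groups did not overlap in that direction for 2 members, against 3.18% of all genes, and in the higher direction for 0, against 1.99%. For the loaders, the 95% interval of the fold change ran from -0.39 to 0.12 for CDT1 and from -0.16 to 0.22 for CDC6. The median over the 10 members was -0.09 against 0.00 over all genes.

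Because the ring needs its subunits in equal numbers, their shares of the summed MCM2 to MCM7 TPM were set side by side. The sum was 943 to 1335 TPM in E92K, 620 to 1487 TPM with JQ1, 929 to 1069 TPM with pinometostat and 1330.3 to 1652 TPM in H2A with DMSO. The pinometostat libraries lay below every DMSO library. JQ1 replicate 1 gave the 620 TPM, and the other JQ1 libraries had 1391 to 1487 TPM. TPM values are set against all RNA of a library, mitochondrial RNA included. MCM2 made up 13.6 ± 1.19% of the sum in E92K, 12.9 ± 2.91% with JQ1, 14.1 ± 0.807% with pinometostat and 15.98 ± 1.17% in H2A with DMSO (SD, n = 4 each). The lowest H2A library with DMSO had 14.998% and the highest 17.5%, and all libraries of the other groups lay below that range, the nearest of them, with pinometostat, at 14.98%. The shares of the other 5 subunits overlapped with those in H2A with DMSO in each group. These shares share a denominator and the same 4 DMSO libraries, and were not tested.

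**Figure D3:**
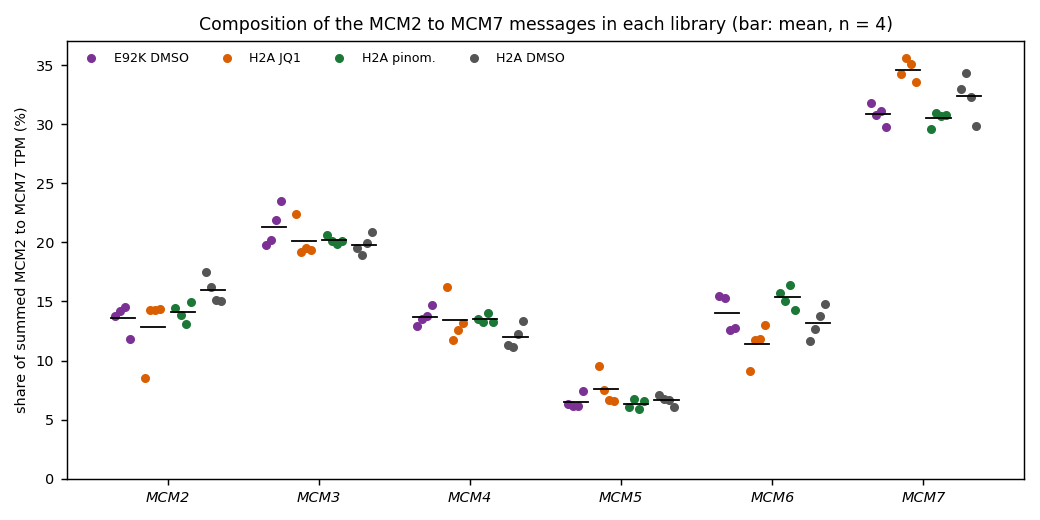
Share of each ring subunit in the summed TPM of MCM2 to MCM7, in percent, for every library of E92K, JQ1, pinometostat and H2A with DMSO from left to right; points are libraries and bars are group means (n = 4). MCM7 holds 29.6% to 35.6% in each library, and MCM2 lies highest in H2A with DMSO.

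Ordered by mean CPM, the pinometostat group was the lowest of the 4 for MCM2, MCM3, MCM4, MCM5, MCM7, CDC6 and CDT1. Few pairs of neighbours in these orders were called. For CDC6, JQ1 at 139 ± 5.87 CPM was above E92K at 106 ± 6.28 CPM (SD, n = 4 each), the next group down (edgeR, adjusted p = 0.00393). For CDT1, pinometostat at 167 ± 5.60 CPM was below JQ1 at 212 ± 28.995 CPM, the next group up (edgeR, adjusted p = 0.0379), but in 7 of 8 fits without a library of these groups this pair was not called. The other 28 pairs of neighbours were not called, though in some of them the groups did not overlap. Between JQ1 and pinometostat, whose doses and times differ, 6 members were higher with JQ1, MCM3, MCM4, MCM5, MCM7, CDC6 and CDT1, from 0.33 to 0.59 on the log2 scale, where 34.2% of all genes were called, 16.8% higher and 17.4% lower. The same 6 had every JQ1 library above every pinometostat library (15.3% of all genes), and 0 every one below (17.9%). JQ1 replicate 1 decided other calls here. Without it, MCM2 was called at 0.48 (edgeR, adjusted p = 0.00265), against 0.25 with all libraries, and CDC45 at 0.26 (0.0419), against 0.15. Without both libraries that stood apart, MCM2 (0.44) and CDC45 (0.22) were called, CDT1 was not (0.25, adjusted p = 0.0525), the other 5 were still called, and 45% of all genes were called. Between E92K and JQ1, MCM5, MCM7 and CDC6 were lower in E92K by 0.32 to 0.39, with 22.9% of all genes called, 10.9% lower and 11.9% higher. MCM7 was called in 3 of 8 fits without a library, and was lost without E92K replicate 2 or 4 (edgeR, adjusted p = 0.0617 and 0.107) or JQ1 replicate 2, 3 or 4 (0.109, 0.0678 and 0.0544). Without JQ1 replicate 1 and E92K replicate 4 together, MCM5, MCM7 and CDC6 were called (-0.33, -0.33 and -0.36), with 31.6% of all genes. Groups did not overlap for MCM5 and CDC6, lower in E92K (8.94% of all genes), and for MCM10, higher in E92K (11.2%). Between E92K and pinometostat 0 members were called by edgeR, where 0.352% of all genes were called, 0.168% higher and 0.185% lower. DESeq2 called 2 members and 4.98% of all genes. An unadjusted p below 0.05 was found in edgeR for 4 members and for 3009 of all 17306 genes. For MCM3, MCM4, MCM5, MCM7 and CDT1, every E92K library was above every pinometostat library (7.92% of all genes), and for 0 members every one below (6.56%). With both of those libraries left out, MCM3 (0.28) and MCM7 (0.28) were called (edgeR, adjusted p = 0.0283 and 0.0353), with 8.98% of all genes.

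Around the members, 129 genes in 8 other lists of the replication and cell cycle machinery were tested. These lists were chosen with earlier results of these data known. With pinometostat, edgeR called 9 of the 129 genes (6.98%, against 8.2% of all genes), DESeq2 23 (17.8%, against 13.6%) and limma-voom 11 (8.53%, against 9.32%). The edgeR share lay near that of all genes. Of the 6 origin recognition complex genes, which mark the origin, 0 were called (edgeR, and 0 by DESeq2 and by limma-voom, 2 at an unadjusted p below 0.05). Their median was 0.24, with 0.48 for ORC6 (adjusted p = 0.109) and 0.40 for ORC4 (0.106). Of 15 inhibitors, turnover factors and MCM relatives, 1 fell, FZR1, the activator of the anaphase-promoting complex in G1, at -0.37 ± 0.09 (edgeR, adjusted p = 0.0184). GMNN, which encodes the CDT1 inhibitor geminin, was at 0.42 without passing (adjusted p = 0.123), with 239 ± 20.1 CPM with pinometostat and 179 ± 21.4 CPM with DMSO. Of 17 origin firing factors, 2 rose, both parts of the kinase that acts on the loaded ring. DBF4 had a fold change of 0.44 ± 0.12 (edgeR, adjusted p = 0.0298) and CDC7 one of 0.37 ± 0.11 (adjusted p = 0.0475).

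Of 32 polymerase and replisome genes, 1 rose with pinometostat and 2 fell. RPA3, a subunit of the single-strand binding complex, rose by 0.55 ± 0.11 (edgeR, adjusted p = 0.0107). POLD1, the catalytic subunit of polymerase delta, was at -0.51 ± 0.13 (adjusted p = 0.0269), and CHAF1A, a histone chaperone of the fork, at -0.48 ± 0.13 (adjusted p = 0.0336). Of 13 E2F, DP and pocket protein genes 0 were called in edgeR, DESeq2 or limma-voom, with 0 at an unadjusted p below 0.05 and E2F1 at -0.23 (edgeR, adjusted p = 0.202). Of 17 other E2F targets of S phase, 2 fell, TK1, the thymidine kinase, at -0.40 ± 0.09 and the mismatch repair gene MSH6 at -0.30 ± 0.08 (edgeR, adjusted p = 0.0156 and 0.033). Of 11 replication checkpoint genes 0 were called by edgeR, 1 by DESeq2 and 2 at an unadjusted p below 0.05. Of 18 G2/M genes 1 fell, the spindle factor TPX2, at -0.44 ± 0.10 (edgeR, adjusted p = 0.0132). None of these 9 named genes was called in every fit without a library. Without H2A DMSO replicate 1, TPX2 alone of the 9 was called, and without pinometostat replicate 1, RPA3 alone (the others had adjusted p from 0.0501 to 0.183 and from 0.0506 to 0.148). Without H2A DMSO replicates 2, 3 and 4 in turn, 5, 4 and 8 were called, and without pinometostat replicates 2, 3 and 4, 6, 4 and 6 (the lost ones from 0.0509 to 0.117).

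With JQ1, edgeR called 29 of the 129 genes in these 8 lists (22.5%, against 17.6% of all genes, of which 7.16% higher and 10.4% lower), DESeq2 35 (27.1%, against 21.2%) and limma-voom 30 (23.3%, against 16.9%). The counts per list were not tested against these shares. In the origin recognition complex, ORC6 was at 0.56 ± 0.18 (edgeR, adjusted p = 0.0443), and without JQ1 replicate 1 at 0.31 (0.15). Of the inhibitors and turnover factors, DTL, which targets CDT1 for destruction in S phase, fell by 0.42 on the log2 scale (SE 0.11, adjusted p = 0.0151). CCNF, the cyclin F gene, was at 0.46 ± 0.15 (adjusted p = 0.0366). Of 17 firing factors 3 rose and 4 fell. RECQL4 rose by 0.86 ± 0.20 and GINS4 by 0.49 ± 0.11 (edgeR, adjusted p = 0.00518 and 0.00574), while GINS3 was at -0.50 ± 0.12 and CDC7 at -0.58 ± 0.11 (adjusted p = 0.00819 and 0.00138). CDC7 had 69.0 ± 5.36 CPM with JQ1, 133 ± 11.96 CPM with pinometostat and 103 ± 14.5 CPM with DMSO (SD, n = 4 each).

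Of 32 replisome genes 5 rose and 3 fell with JQ1, among them LIG1, the ligase of lagging strand fragments, at 0.58 ± 0.12 and POLD3 at -0.58 ± 0.12 (edgeR, adjusted p = 0.0026 and 0.00252). CLSPN and CHTF18, a checkpoint mediator and a clamp loader gene, rose by 1.23 ± 0.33 and 1.09 ± 0.28 (adjusted p = 0.0141 and 0.011). Without JQ1 replicate 1 those values were 0.51 and 0.68, still called. Of 13 E2F, DP and pocket protein genes 4 fell and 0 rose. E2F2, an activator, had 10.9 ± 1.85 CPM with JQ1 and 33.3 ± 3.63 CPM with DMSO, a fold change of -1.61 ± 0.15 (edgeR, adjusted p = 7.14e-07). E2F8, a repressor, was at -1.17 ± 0.14, E2F5 at -0.62 ± 0.17 and RBL1, a pocket protein, at -0.41 ± 0.11 (edgeR, adjusted p = 1.2e-05, 0.0152 and 0.0179). E2F5 was lost without H2A DMSO replicate 4 (-0.42, adjusted p = 0.0665).

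Of 17 other S phase E2F targets, 2 rose and 2 fell with JQ1. TK1 and SLBP were at 0.32 ± 0.09 and 0.38 ± 0.12, and EXO1 was at -0.31 ± 0.11 (edgeR, adjusted p = 0.0205, 0.0322 and 0.0498). Of 11 checkpoint genes, ETAA1 fell and RAD9A rose (-0.51 ± 0.11 and 0.44 ± 0.14, edgeR, adjusted p = 0.00258 and 0.0367), and of 18 G2/M genes AURKA, a mitotic kinase, fell (-0.65 ± 0.15, adjusted p = 0.00445). Of the 22 genes with the smallest adjusted p in these lists with JQ1, up to 4 per list, 15 were called in every fit without a library. The others, ORC6, CCNF, TK1, SLBP, EXO1, RAD9A and E2F5, were lost in some: 4, 5, 6 and 4 of the 22 without H2A DMSO replicates 1 to 4 in turn and 4, 4, 3 and 3 without JQ1 replicates 1 to 4, at adjusted p from 0.0501 to 0.154. Of the 10 tested kidney markers, 8 fell and 1 rose with JQ1, led by WT1 (-1.96 ± 0.23) and GATA3 (-1.35 ± 0.17). The list summed to 407 to 504 TPM with JQ1 and 427 to 505 TPM with DMSO, a sum that is mostly CITED1 (mean 313 TPM over all libraries). Of 7 tested neuronal markers, 2 rose, and the list summed to 262 to 287 TPM with JQ1 and 168 to 280.1 TPM with DMSO. The part of these lists in the licensing result was not tested. Between E92K and H2A, no gene of these lists was called by edgeR, DESeq2 or limma-voom, and from 0 to 3 per list had an unadjusted p below 0.05 in edgeR.

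**Figure D4:**
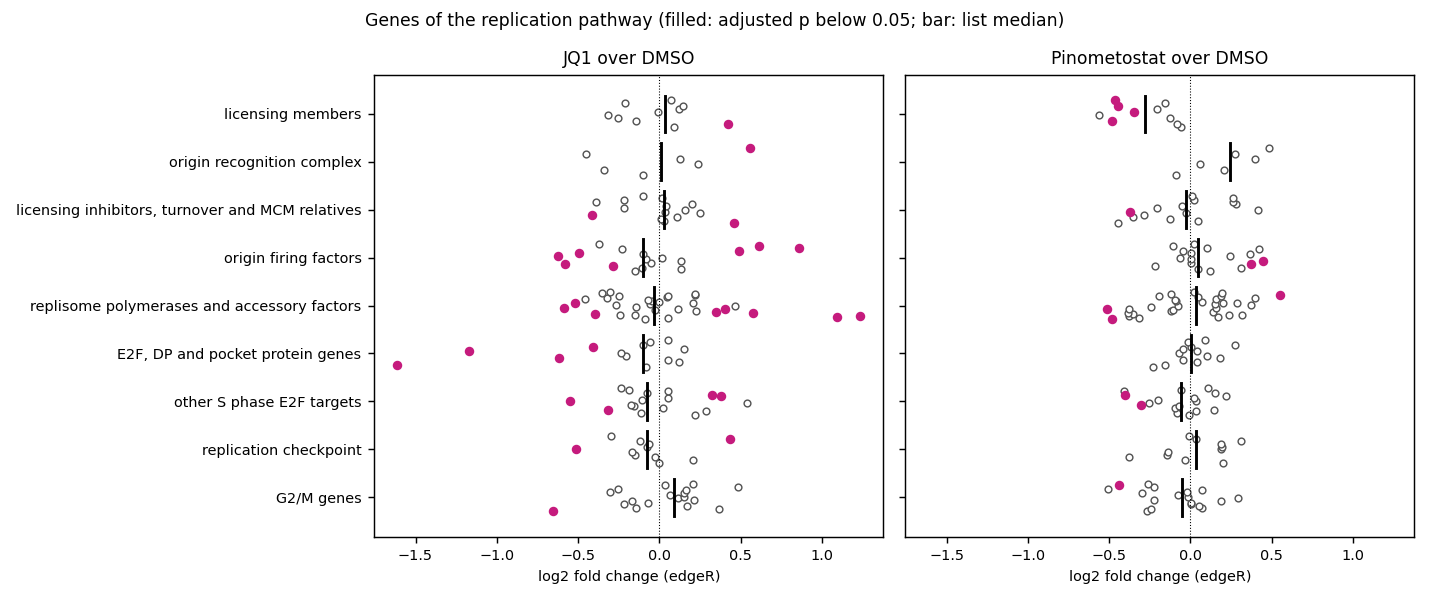
Log2 fold change (edgeR) of every gene of 9 replication lists (rows) for JQ1 over DMSO (left panel) and pinometostat over DMSO (right panel); filled points have an adjusted p below 0.05 and bars are list medians. The licensing row has its median at 0.03 with JQ1 and at -0.28 with pinometostat, and the E2F row has 4 called genes with JQ1 and 0 with pinometostat.

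Several members share or adjoin other genes, and the strand setting of the counting is not given in the sources used here, so reads of overlapping genes cannot be assigned with certainty. MCM7 (chromosome 7, 100092728 to 100101940, minus strand, coordinates of the files on GRCh38) overlaps AP4M1 on the other strand and holds MIR25 within it. AP4M1, an adaptor complex gene, was at -0.18 ± 0.10 with pinometostat (edgeR, adjusted p = 0.285). TAF6, a TFIID subunit gene 5130 bases away on the same strand, fell by 0.43 on the log2 scale with pinometostat (SE 0.09, edgeR, adjusted p = 0.0134), which is close to the value of MCM7, and was lost without H2A DMSO replicate 1 (adjusted p = 0.0522). MCM4 (chromosome 8, 47960185 to 47978160, plus strand) starts 2 bases from PRKDC, a DNA repair kinase gene that runs the other way and was at -0.30 ± 0.15 with pinometostat (edgeR, adjusted p = 0.2). CDC45 (chromosome 22, 19479459 to 19520612, plus strand) lies head to head with UFD1, 244 bases away, which was at 0.27 ± 0.14 (adjusted p = 0.227). MCM2 (chromosome 3, 127598223 to 127622436, plus strand) overlaps TPRA1 on the other strand, at -0.04 ± 0.13 (adjusted p = 0.887). With JQ1, WIPF2, 3497 bases before CDC6 (chromosome 17, 40287633 to 40304657, plus strand), rose by 0.54 ± 0.16 (edgeR, adjusted p = 0.0235), and was at 0.30 without JQ1 replicate 1 (adjusted p = 0.0935). It was also lost without H2A DMSO replicate 2, 3 or 4 (adjusted p from 0.0518 to 0.0751).

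The remaining members lie on chromosome 6 (MCM3, 52264009 to 52284881, minus strand), chromosome 22 (MCM5, 35400063 to 35425430, plus strand), chromosome 2 (MCM6, 135839626 to 135876426, minus strand), chromosome 10 (MCM10, 13161554 to 13211104, plus strand) and chromosome 16 (CDT1, 88803213 to 88809258, plus strand). APRT, on the other strand, lies 81 bases beyond the end of CDT1. It was at 0.04 ± 0.16 with pinometostat and 0.39 ± 0.16 with JQ1, without passing (edgeR, adjusted p = 0.9055 and 0.1015). HMOX1, 5849 bases before MCM5, rose with JQ1 by 0.51 ± 0.13 (edgeR, adjusted p = 0.0116), while MCM5 was at 0.15 ± 0.10. Without JQ1 replicate 1 the value of HMOX1 was 0.32, still called.

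Across the 16 libraries, the members differed in how closely they followed each other. The Pearson correlation of log2 CPM with the mean of the other 9 was 0.89 for MCM7 and 0.87 for MCM3, and 0.15 for MCM10. For the other members it lay between 0.33 (MCM6) and 0.65 (MCM4). With JQ1 replicate 1 and E92K replicate 4 left out, MCM2, MCM4 and MCM5 were each at 0.85, against 0.64, 0.65 and 0.58 with all libraries. CDT1 was then at 0.60 against 0.35, CDC6 at 0.56 against 0.38 and MCM6 at 0.45 against 0.33. MCM3 was at 0.95, MCM7 at 0.91, CDC45 at 0.43 against 0.46 and MCM10 at 0.13. Among 11488 other genes with at least 5 CPM, those nearest to the members' mean were MAGED1, CDIP1 and EPHB2, each at 0.95, SHMT2 at 0.94 and TRAP1 at 0.93. Their Spearman coefficients lay between 0.95 and 0.96. The median over all candidates was 0.11. These coefficients describe libraries that share groups and scaling, and none was tested.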

How the data were processed

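RNA of 16 HEK293T samples was sequenced, 4 per group, and groups were taken from titles and treatment labels. Counts per gene were deposited by the authors both per sample and as a series table, and these were equal in 920000 of 920000 cells. The TPM values deposited by the authors equal counts divided by exonic length, scaled to a fixed sum. No aligner, counter or strand setting was found in the labels or headers used here. Coordinates of all 10 members were those of GENCODE 29 (GRCh38).

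Counts were filtered with filterByExpr (minimum count 10, total 15), normalised with TMM and tested with glmQLFit and glmQLFTest in edgeR 4.0.16 (R 4.3.3) using the 16 libraries jointly and a coefficient for each group, two-sided, with Benjamini-Hochberg adjustment over 17306 genes and a threshold of 0.05. An SE is the fold change divided by the square root of F. Alternatives were DESeq2 1.42.0, limma 3.58.1 (voom, and log2(TPM + 1)), other scalings and filters, 8 libraries, a replicate block, a mitochondrial covariate, and left-out libraries. Replicate pairs never matched within sampling noise (chi-square per degree of freedom at least 3.77). Named list genes are up to 4 per list with the smallest adjusted p, and neighbours and nearest genes followed fixed rules; further list genes are examples. Some genes of these lists are not reported here. The members and lists were chosen with earlier results of these data known. Promoters are from RefSeq (GRCh38.p14). Figures used matplotlib 3.10.9.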

Additional observations from a re-analysis of the deposited data

Results flagged for a closer look

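Of 40 combinations of a member and a group of 4 libraries, 3 had a library far from the others of its group, by a gap above Dixon's 95% critical value; chance flags about 1 in 20 groups. MCM2 had 153.5 CPM in JQ1 replicate 1, with 320.0 to 332 CPM in the other JQ1 libraries. CDC45 had 135.8 CPM in the same library, with 174 to 181 CPM in the others. MCM7 had 477.5 CPM in E92K replicate 4, with 549 to 559.5 CPM in the other E92K libraries. These are the libraries with 16.5% and 7.45% of counts from mitochondrial genes, and the part of that share in the values was not tested.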

How the results depend on the processing

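Numbers of called members that moved by over 1.5 times are grouped here by setting; the cause was not tested. Pinometostat against DMSO had 4 called members, with 2 under the replicate block, 1 by limma on log2(TPM + 1), and 0 to 4 without a library (0 without H2A DMSO replicate 1, and 2 without pinometostat replicate 1, 2 or 3). JQ1 against DMSO had 1, with 0 by library size alone, 0 without a filter, 0 by limma on log2(TPM + 1), and 1 without any library. E92K against H2A had 0 without any library. JQ1 against pinometostat had 6, with 3 by library size alone, 3 without a filter, 0 by limma on log2(TPM + 1), and 5 to 7 without a library (7 without JQ1 replicate 1). E92K against JQ1 had 3, with 0 by library size alone, 0 without a filter, 1 with 8 libraries, 0 by limma on log2(TPM + 1), and 2 to 3 without a library. E92K against pinometostat had 0, with 2 by DESeq2, 2 without JQ1 replicate 1 and E92K replicate 4, 2 with the mitochondrial covariate, and 0 without any library.

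Of 2071 alternative values of single genes, 42 changed sign, 0 of them from or to a called value. Under library size alone these were, with JQ1 against DMSO, MCM4 (-0.061), MCM5 (-0.047), MCM7 (-0.10) and CDC45 (-0.080); in E92K against H2A, MCM4 (-0.023), MCM10 (-0.012) and CDC6 (-0.0053); and in E92K against JQ1, MCM2 (0.015), MCM3 (0.077) and MCM4 (0.038). By limma on log2(TPM + 1) they were, with JQ1 against DMSO, MCM4 (-0.17), MCM5 (-0.15), MCM7 (-0.23) and CDC45 (-0.21); in E92K against H2A, MCM4 (-0.10), MCM10 (-0.086) and CDC6 (-0.083); in E92K against JQ1, MCM2 (0.13), MCM3 (0.11), MCM4 (0.071) and CDC45 (0.0054); and in JQ1 against pinometostat, CDC45 (-0.018). Without a filter MCM4 was at -0.0019 in E92K against H2A. With the mitochondrial covariate MCM3 was at 0.0093 with JQ1 and MCM6 at 0.031 in JQ1 against pinometostat. Without JQ1 replicate 1 and E92K replicate 4, MCM3 was at 0.00020 with JQ1, MCM6 at 0.090 in JQ1 against pinometostat and CDC45 at 0.045 in E92K against pinometostat. Without a library, the ranges that crossed 0 were -0.028 to 0.049 for MCM4 and -0.019 to 0.071 for MCM10 in E92K against H2A, -0.029 to 0.028 for MCM3 with JQ1, -0.13 to 0.13 for MCM6 in JQ1 against pinometostat, -0.020 to 0.21 for MCM6 and -0.088 to 0.10 for CDT1 in E92K against JQ1, and -0.091 to 0.062 for CDC45 in E92K against pinometostat.

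Over all genes, pinometostat called 1419, with 4610 from 8 libraries, 4449 with the mitochondrial covariate, 4782 without JQ1 replicate 1 and E92K replicate 4, 2348 by DESeq2, 534 under the block and 457 by limma on log2(TPM + 1), and 283 to 1546 without a library. JQ1 called 3044, with 1872 from 8 libraries. E92K against JQ1 called 3962, with 2276 from 8 libraries, 2180 by limma on log2(TPM + 1) and 6302 with the covariate. JQ1 against pinometostat called 5919, with 3684 by limma on log2(TPM + 1). E92K against pinometostat called 61, with 862 by DESeq2, 148 by its size factors, 104 by library size alone, 306 without a filter, 111 with the stricter filter, 383 from 8 libraries, 1566 without both libraries, 2199 with the covariate, 0 under the block, 0 by limma on log2(TPM + 1), and 0 to 9 without a library. E92K against H2A called 0, with 4 by DESeq2, without a filter and with the covariate, 3 without both libraries and 1 without H2A DMSO replicate 1. The median of all genes with JQ1 moved from 0.04 to -0.14 by library size alone and -0.21 by limma on log2(TPM + 1), and the calls split into 433 higher and 2605 lower, and 209 higher and 2174 lower, against 1239 higher and 1805 lower. With pinometostat that median moved from 0.03 to -0.09 by limma on log2(TPM + 1), with 69 higher and 388 lower, and library size alone gave 395 higher and 818 lower, against 626 higher and 793 lower. By library size alone, E92K against JQ1 gave 2858 higher and 710 lower (2068 and 1894 before) and JQ1 against pinometostat 1733 and 3822 (2915 and 3004); by limma on log2(TPM + 1) they gave 1885 and 295, and 972 and 2712. Samples with the same number showed little shared deviation (2 of 24 correlations above 0.1, and 9 of 48 cases in which a library correlated best with its own number). The labels do not say what the numbers mark, and such correlations cannot exclude a shared culture or day. The main fit used no pairing. Depth left 650 counts or more for each member in each library, so the spread between libraries sets the precision.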
